A study of Mus musculus with 24 samples.

Results

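BV-2 cells, an immortalized line of mouse microglia, were exposed to bacterial lipopolysaccharide (LPS) in the presence of cannabidiol (CBD), and the response to LPS was read from the arrays on which both sides carried CBD. These were 4 of the 24 Illumina MouseRef-8 arrays of the study, chosen by their condition labels. The CBD_LPS group (2 arrays) had received CBD at 10 µM for 6 h, with LPS at 100 ng/ml added after the initial 2 h and present for the last 4 h. The CBD group (2 arrays) had received CBD alone at the same dose for 6 h. Set beside them were the LPS (6 arrays, LPS alone for 4 h) and Cntr (6 arrays, untreated) groups, and the THC_LPS and THC groups (4 arrays each), which had received Δ9-tetrahydrocannabinol in place of CBD at the same dose and times. CBD was thus common to both groups of the comparison, and each group was a culture of the same cell line with no animal donor. The study's methods speak of independent arrays from replicate experiments, in numbers other than those of the labels, and no source used here ties an array to a culture, so every p-value reflects the spread between arrays, possibly a technical one. That spread was pooled over all 6 groups, so it comes mostly from arrays other than these 4. With 2 arrays a group the precision is low.

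Microglia are the resident macrophages of the brain. They recognize LPS through Toll-like receptor 4 (TLR4), which signals through the adaptor MyD88 to NF-kB and the MAP kinases and through the adaptor TRIF to interferon beta, which in turn acts through its receptor on interferon-stimulated genes. The early targets of NF-kB include cytokines and chemokines and also the inhibitors that end the signal. CBD is the non-psychoactive isomer of THC. Its pyran ring is open, which leaves a further hydroxyl free, and CBD is known to induce genes of the oxidative and amino acid stress responses in these cells.

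Values are normalized log2 signals, with a floor of 7.54, and a difference is CBD_LPS minus CBD unless another is named. A probe was called at an adjusted p under 0.05 by limma's moderated test (Benjamini-Hochberg, 24611 probes, with the spread estimated from all 24 arrays), and a gene was read from its brightest probe. Where a CBD_LPS or CBD value is placed against the range of the LPS or Cntr arrays, that pair of groups was not tested. The share of all genes lying outside such a range was not counted. The cells carried the macrophage markers Adgre1 (12.94 and 13.47 on the CBD_LPS arrays, against 12.94 and 12.83 on the CBD arrays) and Trem2 (12.92 and 12.87 on the CBD_LPS arrays, against 13.41 and 13.58 on the CBD arrays). Of 11 measured microglia and macrophage markers, 7 were detected on both arrays of CBD_LPS or of CBD. P2ry12, Tmem119 and Sall1, which mark homeostatic microglia in the brain, lay near the floor at 7.60 to 7.79 on these 4 arrays. On a wider list of homeostatic and phagocytic receptor genes, 20 of 26 were detected. Of the listed markers of other cell types, none of 7 for astrocytes, 8 for fibroblasts and 6 for T and B cells was detected on both arrays of either group, and only 1 of 7 neuronal and 1 of 6 oligodendrocyte markers was. In bulk RNA of this kind, fewer cells of a type and less RNA per cell cannot be told apart.

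The 2 arrays of each group were not alike. The CBD_LPS arrays correlated at 0.9859, the lowest value of any pair within a group (0.9859 to 0.9984), and the CBD arrays at 0.9903. The standard errors (SE) below are pooled over all groups and may understate the spread of these 4 arrays. Among probes detected on all 24 arrays, 303 differed by 2-fold or more between the CBD_LPS arrays and 192 between the CBD arrays, while the 4 pairings of a CBD_LPS with a CBD array gave 353 to 808. The genes that separated the arrays within a group included those of the integrated stress response, which couples amino acid and endoplasmic reticulum stress to the transcription factor Atf4. Ddit3, a transcription factor of that response, lay at 10.24 and 12.69 on CBD_LPS arrays 1 and 2, against 13.24 and 11.00 on CBD arrays 1 and 2. The mean level of the 21 detected stress response genes was 11.36 and 12.05 on CBD_LPS arrays 1 and 2, against 11.94 and 11.25 on CBD arrays 1 and 2. All 4 arrays lay above the LPS arrays (10.12 to 10.48) and the Cntr arrays (9.73 to 10.07), and the higher array was number 2 in CBD_LPS and number 1 in CBD. The part of this spread in the results below was not tested, and where leaving out an array ended the call of a gene named below, this is given beside it.

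With CBD present, LPS raised 352 probes and lowered 317. The values of the 2 groups did not overlap for 668 of these 669, which the call itself favors. The share of all probes without overlap was not counted, so this number is no separate result. Counted by gene, 259 of 15161 were called higher (1.71%) and 256 lower (1.69%). Among the 7309 genes detected on both arrays of CBD_LPS or of CBD, 255 were higher (3.49%) and 245 lower (3.35%). The differences reached 2-fold for 169 of the probes called higher and 83 of those called lower, and 3-fold for 91 and 21. The balance between directions depended on the scaling: when arrays were scaled by their medians instead of by quantiles, so that the median difference of the detected probes was 0.36 in log2 in place of -0.03, 369 probes were higher and 15 lower. Falls are therefore relative to the median gene. Without CBD array 2 the count of higher probes was 153, against 460 without CBD_LPS array 1.

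Promoters are shown here for 5 genes that rose, picked because they hold an element of the NF-kB or the interferon branch of the pathway. The 250 bases before the transcription start were searched on both strands for an NF-kB element (GGGNNTTNCC), an interferon-stimulated response element (ISRE, TTTCNNTTTC) and an AP-1 element (TGANTCA), and matches of different elements may share bases. Sequences are from RefSeq (GRCm38.p6) and run 5′ to 3′ along the gene, with NF-kB or ISRE matches in capitals. Cxcl2 (chr5:90903649-90903898, plus strand) has 2 NF-kB matches, of which the first begins at -97, and the upstream promoter of Tnfaip3 (chr10:19015411-19015660, minus strand) has 1 match at -12. Cxcl10 (chr5:92348890-92349139, minus strand) has an ISRE match at -213 followed by an NF-kB match at -103. Isg15 (chr4:156200819-156201068, minus strand) has 3 overlapping ISRE matches from -78, and the upstream promoter of Gbp3 (chr3:142559794-142560043, plus strand) has 2 from -45. The downstream promoters of Tnfaip3 and Gbp3 had no match, nor had those of Tnf, Il1b, Traf1, Icam1, Irf1, Cmpk2 and Ifit2, which also rose. Some genes that fell held matches: NF-kB in Fhod1 (-164) and in the most downstream promoter of St6gal1 (-51), and an ISRE in Cytip (-177). Klhl6, Cxcr4 and Arhgap45, which also fell, had none.
Cxcl2: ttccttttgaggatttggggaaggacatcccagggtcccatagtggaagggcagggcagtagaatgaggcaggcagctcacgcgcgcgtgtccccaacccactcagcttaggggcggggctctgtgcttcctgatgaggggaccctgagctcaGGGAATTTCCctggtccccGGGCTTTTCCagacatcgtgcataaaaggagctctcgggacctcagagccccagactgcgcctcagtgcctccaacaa
Tnfaip3: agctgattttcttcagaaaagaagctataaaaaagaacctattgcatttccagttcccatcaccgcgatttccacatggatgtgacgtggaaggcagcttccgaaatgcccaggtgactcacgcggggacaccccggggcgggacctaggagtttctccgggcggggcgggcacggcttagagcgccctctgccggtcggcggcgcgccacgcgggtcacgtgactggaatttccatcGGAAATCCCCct
Cxcl10: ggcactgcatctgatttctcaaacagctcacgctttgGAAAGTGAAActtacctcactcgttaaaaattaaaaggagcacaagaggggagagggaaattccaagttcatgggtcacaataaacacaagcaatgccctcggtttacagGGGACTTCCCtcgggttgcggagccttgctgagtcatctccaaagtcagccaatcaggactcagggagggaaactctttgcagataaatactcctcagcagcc
Isg15: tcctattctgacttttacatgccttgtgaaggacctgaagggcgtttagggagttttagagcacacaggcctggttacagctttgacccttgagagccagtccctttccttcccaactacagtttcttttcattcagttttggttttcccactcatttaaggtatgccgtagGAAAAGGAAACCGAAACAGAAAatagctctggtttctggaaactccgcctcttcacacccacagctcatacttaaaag
Gbp3: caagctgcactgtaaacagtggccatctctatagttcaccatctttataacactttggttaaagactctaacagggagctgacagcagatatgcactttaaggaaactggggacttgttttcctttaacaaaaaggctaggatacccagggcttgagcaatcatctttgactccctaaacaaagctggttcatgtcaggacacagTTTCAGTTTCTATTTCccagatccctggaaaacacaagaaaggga

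Of the 265 RefSeq promoters matched by symbol to genes called higher (199 of the 259 genes), 25 held the NF-kB element (9.43%), 14 the ISRE (5.28%) and 22 the AP-1 element (8.30%). Among the 276 promoters of 213 genes called lower the shares were 4.35% for NF-kB, 1.45% for the ISRE and 4.71% for AP-1. Over the 7777 promoters of all detected genes they were 4.76%, 2.76% and 4.68%, and over all 32851 RefSeq promoters 4.11%, 2.98% and 6.75%, in the same order. The 14 interferon-stimulated genes described below as higher had 17 promoters, of which 8 held the ISRE (47.1%) and 0 the NF-kB element. These counts describe letters in a window and were not tested.

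Secreted inflammatory proteins were among the largest rises. Cxcl2, a chemokine that attracts neutrophils, had signals of 13.26 and 13.60 on the CBD_LPS arrays, against 8.07 and 7.64 on the CBD arrays, a difference of 5.57 ± 0.25 in log2 (SE) or 47.7-fold (adjusted p = 1.33e-10). On the 6 LPS arrays it ran from 13.37 to 13.89, so that CBD_LPS array 2 lay within their range and array 1 just below it. Csf3, the granulocyte colony-stimulating factor, stood at 12.17 and 12.96 on the CBD_LPS arrays, against 7.61 and 7.64 on the CBD arrays, where it was not detected, and was at least 28.3-fold higher (adjusted p = 2.30e-07), while a dimmer Csf3 probe differed by 0.90 (adjusted p = 0.451). Tnf, the cytokine that amplifies NF-kB signaling, stood at 14.71 and 14.15 on the CBD_LPS arrays, against 10.18 and 9.83 on the CBD arrays, and rose by 4.42 ± 0.45 or 21.5-fold (adjusted p = 1.62e-05). All 3 genes were chosen among called genes without overlap between the groups, so the separation of their arrays is no further result. They remained called with any array of the 2 groups left out.

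Il1b, the cytokine that the inflammasome processes, showed the widest gap between the arrays of a group among the cytokines that rose. Its signals were 13.29 and 10.36 on the CBD_LPS arrays, against 7.84 and 7.66 on the CBD arrays, and both CBD_LPS arrays lay below all 6 LPS arrays (13.85 to 14.98). The difference was 4.08 ± 0.64 (16.9-fold, adjusted p = 0.00105). Ebi3, a subunit of interleukin 27 and interleukin 35, had 11.70 and 11.33 on the CBD_LPS arrays, against 9.66 and 9.52 on the CBD arrays (1.92 ± 0.40, adjusted p = 0.0105). Its call was lost without CBD array 2 (1.85, adjusted p = 0.0816) or CBD_LPS array 1 (1.74, adjusted p = 0.0718). Of 20 cytokines measured, 4 were called higher and 0 lower with CBD present, against 12 and 0 in untreated cells. The untreated groups had 6 arrays each in place of 2. Over the genes detected on all 16 arrays the median SE was 0.0964 there, against 0.167 with CBD. Counts of calls in both responses, here and below, are thus of unlike precision and do not compare their sizes. The median difference of the 14 detected cytokines was 1.60 with CBD and 2.08 in untreated cells, beside -0.03 and -0.04 over all detected genes. Il6, Il1a and Ifnb1 did not pass the test with CBD present, at 1.65 (adjusted p = 0.155), 1.70 (adjusted p = 0.444) and 0.74 (adjusted p = 0.749), while in untreated cells they had passed it at 2.26, 3.47 and 2.42. The test of the difference between the responses called 0 of the 20 cytokines.

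Among 21 chemokines, 7 were called higher and 0 lower. Besides Cxcl2, Ccl5, which attracts T cells and monocytes, stood at 14.02 and 13.65 on the CBD_LPS arrays, against 10.40 and 9.32 on the CBD arrays (3.98 ± 0.49, 15.7-fold, adjusted p = 0.000139). Cxcl10, an interferon-induced ligand of Cxcr3, stood at 12.83 and 11.88 on the CBD_LPS arrays, against 8.96 and 8.03 on the CBD arrays (3.86 ± 0.44, 14.5-fold, adjusted p = 6.11e-05). For Ccl7, a monocyte chemokine, the signals were 12.96 and 12.17 on the CBD_LPS arrays, against 9.14 and 9.13 on the CBD arrays (3.43 ± 0.87, adjusted p = 0.0380). Both CBD_LPS values of Ccl7 and of Cxcl10 lay below all 6 LPS values, which began at 13.96 and 12.94, but CBD_LPS was not tested against LPS. The Ccl7 call rests on every array, since leaving out any of the 4 gave adjusted p-values of 0.0794 to 0.177 with differences of 3.03 to 3.83. Ccl2, Ccl3 and Cxcl16, all chemokines for monocytes or lymphocytes, rose by 3.21, 1.10 and 0.71. The call of Ccl2 was lost without CBD array 1, CBD array 2 or CBD_LPS array 1 (3.02 to 3.39, adjusted p = 0.0606 to 0.0861), and that of Ccl3 without CBD array 1 (0.94, adjusted p = 0.112) or CBD_LPS array 1 (1.02, adjusted p = 0.0696). With a single array left out, 4 to 6 chemokines were called, the fewest without CBD array 1 or CBD_LPS array 1.

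**Figure D1:**
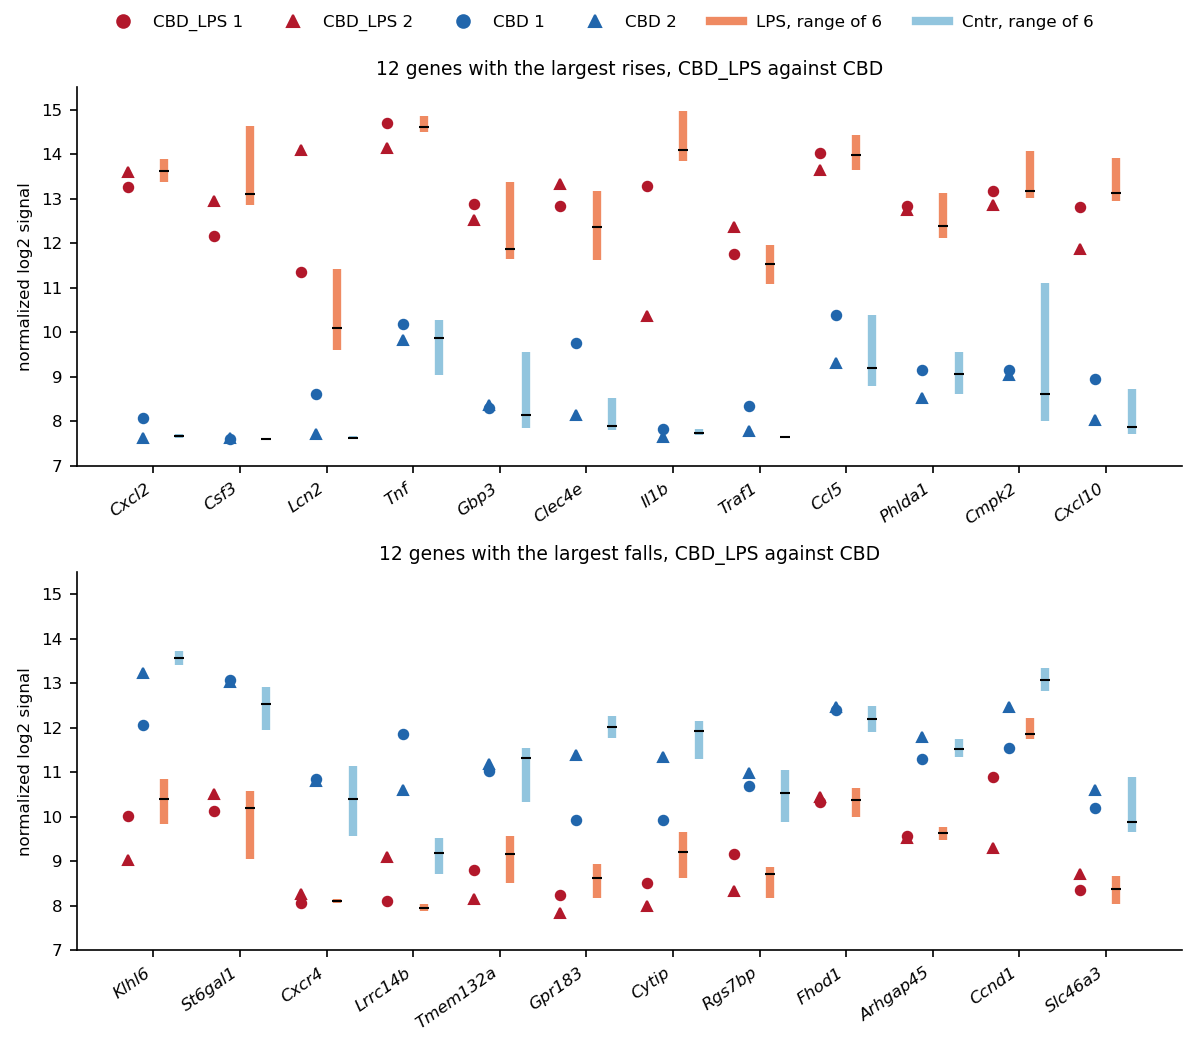
Normalized log2 signal of the 12 genes with the largest rises (top) and the 12 with the largest falls (bottom) in CBD_LPS against CBD, with each CBD_LPS and CBD array as a point and the range and median of the 6 LPS and 6 Cntr arrays as bars with a line. The genes were chosen among called genes without overlap between the groups, so the separation of the CBD_LPS and CBD points was fixed by that choice. The CBD_LPS points of Lcn2 (11.37 and 14.09) and Il1b (13.29 and 10.36) are the farthest apart among the rises.

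Most measured genes of the intracellular NF-kB loop were called higher. Of 21 measured NF-kB subunits, IkB proteins and feedback inhibitors, 15 were called higher and 0 lower with CBD present, and all 21 had a positive difference. Their median was 1.34, against 1.97 in untreated cells, where all 21 were called higher with 6 arrays a group. Traf1, an NF-kB-induced adaptor of TNF receptors, had 11.75 and 12.37 on the CBD_LPS arrays, against 8.35 and 7.77 on the CBD arrays (4.00 ± 0.22, adjusted p = 1.19e-09). Nfkbiz, the nuclear IkB protein that co-activates secondary response genes, had 13.57 and 13.66 on the CBD_LPS arrays, against 10.16 and 10.08 on the CBD arrays (3.50 ± 0.71, adjusted p = 0.00885). Tnfaip3, the deubiquitinase A20 that ends NF-kB signaling, had 12.08 and 12.24 on the CBD_LPS arrays, against 9.69 and 8.64 on the CBD arrays (2.99 ± 0.51, adjusted p = 0.00199). These 3 genes reached the level of the LPS arrays, whose ranges were 11.08 to 11.97, 13.37 to 14.03 and 11.72 to 12.86. Irak3, an inhibitor of MyD88 signaling in macrophages, had 11.02 and 11.68 on the CBD_LPS arrays, against 8.59 and 8.36 on the CBD arrays (2.88 ± 0.61, adjusted p = 0.0117). The kinase gene Ikbke and the IkB alpha gene Nfkbia rose by 2.71 and 1.83, and the mean level of the whole list was 10.72 and 10.73 on the CBD_LPS arrays, against 9.30 and 9.10 on the CBD arrays. Leaving out single arrays left 7 to 12 members called, the fewest without CBD array 2, where Nfkbiz (3.46, adjusted p = 0.0633) and Irak3 (2.76, adjusted p = 0.0913) were no longer called. Irak3 also lost its call without CBD array 1 (2.99, adjusted p = 0.0502) or CBD_LPS array 2 (2.55, adjusted p = 0.0958), Nfkbiz without CBD_LPS array 2 (3.45, adjusted p = 0.0517), and Nfkbia in all settings but that without CBD_LPS array 1 (1.80 to 1.85, adjusted p = 0.0590 to 0.0802).

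Upstream of this loop fewer genes were called. Of 25 genes of the TLR4 receptor complex and its adaptors, 4 were called higher and 0 lower, and the median over the 20 detected was 0.07. Tlr2, a receptor for bacterial lipopeptides, had 15.00 and 14.20 on the CBD_LPS arrays, against 12.94 and 13.64 on the CBD arrays (1.31 ± 0.32, adjusted p = 0.0305). Irak2, a kinase of the MyD88 complex, had 11.25 and 11.34 on the CBD_LPS arrays, against 10.51 and 9.50 on the CBD arrays (1.29 ± 0.34, adjusted p = 0.0446). The adaptor Myd88 differed by 0.98 ± 0.20 (adjusted p = 0.00791) and the kinase Tbk1 by 0.57 ± 0.09 (adjusted p = 0.00133). Without CBD_LPS array 1 only 1 of the 4 was called, with Tlr2 at 0.91 (adjusted p = 0.260), Irak2 at 1.33 (adjusted p = 0.112) and Myd88 at 0.77 (adjusted p = 0.0902). Tlr2 and Myd88 were also lost without CBD array 1 (0.96, adjusted p = 0.262, and 0.94, adjusted p = 0.0570), and Irak2 without CBD array 2 (0.78, adjusted p = 0.505) or CBD_LPS array 2 (1.24, adjusted p = 0.165). Tlr4 itself had 9.48 and 10.06 on the CBD_LPS arrays, against 10.45 and 10.22 on the CBD arrays, and the difference of -0.56 did not pass the test (adjusted p = 0.472). The coreceptor Cd14 stood at 14.00 and 13.93 on the CBD_LPS arrays, against 12.55 and 12.12 on the CBD arrays, and its difference of 1.63 missed the threshold (adjusted p = 0.0514).

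Of 38 interferon-stimulated genes measured, 14 were called higher and 0 lower with CBD present. In untreated cells, with 6 arrays a group in place of 2, the counts were 32 and 0. The 29 detected had a median difference of 1.88 (2.20 in untreated cells), and the sign was positive in all 29. Gbp3, a guanylate-binding protein of cell-autonomous defense, had 12.89 and 12.52 on the CBD_LPS arrays, against 8.30 and 8.37 on the CBD arrays (4.37 ± 0.63, 20.7-fold, adjusted p = 0.000474). Cmpk2, a nucleoside monophosphate kinase, had 13.17 and 12.87 on the CBD_LPS arrays, against 9.16 and 9.05 on the CBD arrays (3.92 ± 0.75, adjusted p = 0.00567). Ifit2, which restricts viral translation, had 13.31 and 12.84 on the CBD_LPS arrays, against 9.65 and 9.57 on the CBD arrays (3.47 ± 0.55, adjusted p = 0.00116). In these 3 genes the replicate arrays lay close together. The genes were chosen among called genes by the size of their change, so the distance between the groups is no further result. Isg15, a ubiquitin-like modifier, was more scattered, at 14.31 and 12.65 on the CBD_LPS arrays, against 9.47 and 10.04 on the CBD arrays (3.72 ± 0.88, adjusted p = 0.0238). Oasl1, Irgm2 and Igtp, an RNA-binding regulator and a pair of immunity-related GTPases, rose by 2.54, 2.96 and 2.89. The mean level of the list was 11.69 and 10.76 on CBD_LPS arrays 1 and 2, against 8.95 and 9.24 on the CBD arrays, and CBD_LPS array 2 lay below the range of the LPS arrays (11.35 to 12.36). The number called dropped to 4 without CBD array 1 or CBD_LPS array 1 and to 5 without CBD array 2, and was 13 without CBD_LPS array 2, and with CBD array 2 and CBD_LPS array 1 both left out it was 1. Irgm2 and Igtp were not called without CBD array 1, CBD array 2 or CBD_LPS array 1 (adjusted p = 0.0699 to 0.149 for Irgm2 and 0.0840 to 0.255 for Igtp). Isg15 kept its call only without CBD_LPS array 2, with 3.44, 4.01 and 2.89 and adjusted p-values of 0.134, 0.0827 and 0.184 without CBD array 1, CBD array 2 and CBD_LPS array 1.

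Cytokine receptor signaling moved at few points. Of 27 SOCS and JAK/STAT genes, 2 were called higher and 0 lower. Socs3, a feedback inhibitor of STAT3, had 11.58 and 10.95 on the CBD_LPS arrays, against 8.63 and 8.37 on the CBD arrays (2.77 ± 0.54, 6.81-fold, adjusted p = 0.00615), and both CBD_LPS values lay below all 6 LPS values (11.88 to 13.33). It lost its call without CBD array 2 (2.64, adjusted p = 0.0602) or CBD_LPS array 1 (2.45, adjusted p = 0.0536). Tyk2, a JAK kinase of the interferon receptor, had 9.51 and 10.39 on the CBD_LPS arrays, against 8.99 and 8.58 on the CBD arrays (1.17 ± 0.22, adjusted p = 0.00450). The call of Tyk2 was lost without CBD array 2 (0.96, adjusted p = 0.0808) or CBD_LPS array 2 (0.72, adjusted p = 0.0817). Cish, another feedback inhibitor, differed by 2.33 without passing the test (adjusted p = 0.0916).

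Among 27 AP-1 and other early response transcription factors, 7 were called higher and 0 lower. Irf1, an activator of interferon-induced genes, had 12.94 and 12.04 on the CBD_LPS arrays, against 10.02 and 10.04 on the CBD arrays (2.46 ± 0.41, adjusted p = 0.00187). Its dimmer probes differed by 1.78 (adjusted p = 0.0177), 0.68 (adjusted p = 0.182) and 0.28 (adjusted p = 0.161). Ier3, an early survival gene, had 13.97 and 13.80 on the CBD_LPS arrays, against 12.64 and 11.71 on the CBD arrays (1.71 ± 0.24, adjusted p = 0.000466). Maff, a small Maf protein, had 9.38 and 9.57 on the CBD_LPS arrays, against 8.24 and 8.17 on the CBD arrays (1.27 ± 0.15, adjusted p = 0.000103). The 3 genes kept their calls with any array left out. Ets2, a MAP kinase-responsive factor, had 12.91 and 13.58 on the CBD_LPS arrays, against 12.49 and 11.03 on the CBD arrays (1.49 ± 0.36, adjusted p = 0.0266), and was not called without CBD array 2 (0.76, adjusted p = 0.445) or CBD_LPS array 2 (1.15, adjusted p = 0.219). Without CBD array 2, 3 members of this list were called. Of 11 MAP kinase phosphatases, Dusp16 and Dusp8 were called higher and 0 lower. Dusp16 had 10.83 and 10.78 on the CBD_LPS arrays, against 9.56 and 8.74 on the CBD arrays (1.66 ± 0.22, adjusted p = 0.000235). Dusp8, a phosphatase of JNK and p38, had 8.74 and 8.95 on the CBD_LPS arrays, against 7.92 and 7.73 on the CBD arrays (1.02 ± 0.09, adjusted p = 4.39e-06), and these CBD_LPS values lay above all 6 LPS values (7.92 to 8.32).

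Effector proteins and surface molecules rose less uniformly. Lcn2, an iron-sequestering acute phase protein, had 11.37 and 14.09 on the CBD_LPS arrays, against 8.63 and 7.72 on the CBD arrays (4.56 ± 1.12, 23.5-fold, adjusted p = 0.0306). The LPS arrays ran from 9.60 to 11.42, so that CBD_LPS array 2 lay above all of them. This call was lost without CBD array 1 (5.01, adjusted p = 0.0751), CBD array 2 (4.10, adjusted p = 0.216) or CBD_LPS array 2 (3.20, adjusted p = 0.278). Slpi, an antiprotease, rose by 2.45 (adjusted p = 0.0338), Plaur, the urokinase receptor, by 2.20 (adjusted p = 0.0346) and Adam17, the sheddase of TNF, by 0.91 (adjusted p = 0.0493). With Lcn2, 4 of 23 effector genes were called higher and 0 lower, against 19 and 0 in untreated cells with 6 arrays a group. Of these 4, 0 kept their calls without CBD array 1, CBD array 2 or CBD_LPS array 2, and 3 did without CBD_LPS array 1, where Plaur was at 1.82 (adjusted p = 0.199). In the other settings the adjusted p-values were 0.117 to 0.224 for Slpi, 0.0548 to 0.159 for Plaur and 0.0671 to 0.358 for Adam17. Saa3, an acute phase protein with 14.97 and 15.01 on the CBD_LPS arrays, against 12.67 and 11.13 on the CBD arrays, did not pass the test (3.09, adjusted p = 0.184), and its CBD values lay above all 6 Cntr values (8.95 to 10.33). Clec4e, the receptor Mincle for mycobacterial glycolipids, had 12.83 and 13.33 on the CBD_LPS arrays, against 9.77 and 8.14 on the CBD arrays (4.13 ± 0.56, 17.5-fold, adjusted p = 0.000281).

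Costimulation and antigen presentation had 2 of 25 genes called higher and 0 lower. Cd40, the receptor for T cell help, had 12.92 and 11.84 on the CBD_LPS arrays, against 8.81 and 8.33 on the CBD arrays (3.82 ± 0.50, 14.1-fold, adjusted p = 0.000222), and a dimmer Cd40 probe, detected on 1 of the 4 arrays, differed by 0.06. Icam1, an adhesion molecule for leukocytes, had 15.06 and 14.31 on the CBD_LPS arrays, against 12.70 and 12.65 on the CBD arrays (2.01 ± 0.33, adjusted p = 0.00135). Both kept their calls with any array left out. Apoptosis and survival genes had 8 of 23 called higher and 0 lower. The anti-apoptotic Bcl2a1a had 12.82 and 13.13 on the CBD_LPS arrays, against 10.73 and 9.97 on the CBD arrays (2.62 ± 0.37, adjusted p = 0.000463), and its near-identical paralog Bcl2a1d rose by 1.32, so that signals of these copies may be shared. Casp4, the caspase that binds cytosolic LPS (caspase 11 of the mouse), had 11.12 and 12.18 on the CBD_LPS arrays, against 10.15 and 8.42 on the CBD arrays (2.36 ± 0.44, adjusted p = 0.00469). Fas, a death receptor, rose by 1.61, and the cytosolic sensors Nod2 and Nlrp3 rose by 1.10 and 0.93. With single arrays left out 4 to 7 of this list were called, the fewest without CBD array 2, where Casp4 (1.49, adjusted p = 0.109) and Bcl2a1d (1.12, adjusted p = 0.106) were not, or CBD_LPS array 2, where Casp4 (1.83, adjusted p = 0.0766) and Bcl2a1d (1.21, adjusted p = 0.0637) were not.

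A few further rises lay outside these groups. Phlda1, a pleckstrin homology-like protein, had 12.83 and 12.74 on the CBD_LPS arrays, against 9.16 and 8.54 on the CBD arrays (3.94 ± 0.32, 15.3-fold, adjusted p = 7.65e-07). Slc2a6, a glucose transporter family member, had 13.81 and 13.68 on the CBD_LPS arrays, against 11.43 and 11.22 on the CBD arrays (2.42 ± 0.34, adjusted p = 0.000411), and Pfkfb3, a regulatory enzyme of glycolysis, rose by 0.95 but was not called without CBD array 2 (0.83, adjusted p = 0.0609) or CBD_LPS array 2 (0.82, adjusted p = 0.0505). They were the 2 of 22 glycolysis and hypoxia genes called higher, and 0 were called lower. Mcoln2, an endolysosomal cation channel, was the 1 of 26 lysosome and autophagy genes called higher (1.69 ± 0.27, adjusted p = 0.00112). Spi1, the macrophage transcription factor PU.1, had 11.46 and 10.92 on the CBD_LPS arrays, against 9.78 and 10.65 on the CBD arrays (0.97 ± 0.25, adjusted p = 0.0391), and was not called without CBD array 1 (0.53, adjusted p = 0.406) or CBD_LPS array 1 (0.70, adjusted p = 0.277).

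The largest fall among called genes was that of Klhl6. This gene, a BTB-kelch protein of lymphoid and myeloid cells, had 10.01 and 9.02 on the CBD_LPS arrays, against 12.06 and 13.24 on the CBD arrays, a fall of 3.13 ± 0.42 in log2 (adjusted p = 0.000291). St6gal1, the sialyltransferase of N-glycans, had 10.14 and 10.51 on the CBD_LPS arrays, against 13.07 and 13.02 on the CBD arrays (-2.72 ± 0.38, adjusted p = 0.000352). Cxcr4, the receptor of Cxcl12, had 8.06 and 8.27 on the CBD_LPS arrays, against 10.86 and 10.80 on the CBD arrays (-2.67 ± 0.35, adjusted p = 0.000212). The groups were more than 2-fold apart in each, a gap favored by choosing the largest falls among called genes without overlap. The LPS arrays had medians of 10.40, 10.19 and 8.10 for Klhl6, St6gal1 and Cxcr4. Gpr183, a chemotactic receptor for oxysterols, had 8.24 and 7.85 on the CBD_LPS arrays, against 9.92 and 11.38 on the CBD arrays (-2.61 ± 0.52, adjusted p = 0.00709). Cytip, which regulates integrin adhesion, had 8.51 and 7.996 on the CBD_LPS arrays, against 9.93 and 11.35 on the CBD arrays (-2.39 ± 0.44, adjusted p = 0.00392). On CBD array 1 both genes lay below all 6 Cntr arrays (11.77 to 12.26 for Gpr183, 11.30 to 12.15 for Cytip), and CBD array 2 lay below the Cntr range for Gpr183 alone. Gpr183 was not called without CBD array 2 (-1.87, adjusted p = 0.142) or CBD_LPS array 2 (-2.41, adjusted p = 0.0591), nor Cytip without CBD array 2 (-1.68, adjusted p = 0.0966).

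Further falls were in the cytoskeletal formin Fhod1 (10.34 and 10.45 on the CBD_LPS arrays, against 12.40 and 12.47 on the CBD arrays) and the GTPase-activating protein Arhgap45 (9.57 and 9.53 on the CBD_LPS arrays, against 11.30 and 11.80 on the CBD arrays). They fell by 2.04 ± 0.39 (adjusted p = 0.00584) and 2.00 ± 0.21 (adjusted p = 2.06e-05). Rgs7bp, an anchor of G protein regulators, and the lysosomal transporter Slc46a3 fell by 2.09 (adjusted p = 0.00222) and 1.87 (adjusted p = 0.00491), and Tmem132a by 2.62 (adjusted p = 0.0261). Slc46a3 lost its call without CBD array 2 (-1.67, adjusted p = 0.0664), and Tmem132a without CBD array 1 (-2.70, adjusted p = 0.0931), CBD array 2 (-2.55, adjusted p = 0.148) or CBD_LPS array 2 (-2.29, adjusted p = 0.163). Lrrc14b, a leucine-rich repeat protein, had 8.10 and 9.09 on the CBD_LPS arrays, against 11.87 and 10.61 on the CBD arrays (-2.64 ± 0.36, adjusted p = 0.000302), and both CBD values were above all 6 Cntr values (8.71 to 9.53). With median scaling Klhl6, Cxcr4 and Lrrc14b were the members of the 12 largest falls that kept their calls, and all 12 kept their direction.

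Of 26 homeostatic microglial and phagocytic receptor genes measured, 6 were called lower and 0 higher, and 0 of the 20 detected had a positive difference (median -0.51, as also in untreated cells). Besides Klhl6, St6gal1 and Gpr183, these were Nfam1, an ITAM-bearing receptor (-1.16), P2ry1, a receptor for ADP (-1.14), and Mertk, a receptor for the uptake of apoptotic cells (-0.75). Mertk had 7.78 and 7.74 on the CBD_LPS arrays, against 8.26 and 8.75 on the CBD arrays. The mean level of the list was 9.33 and 9.20 on the CBD_LPS arrays, against 9.98 and 10.38 on the CBD arrays, with the Cntr arrays at 10.64 to 10.87. The count was 2 without CBD array 2, where Nfam1 was at -0.61 (adjusted p = 0.413), 3 without CBD_LPS array 2, where Nfam1 was at -1.12 (adjusted p = 0.108), 4 without CBD_LPS array 1, where it was at -1.19 (adjusted p = 0.0718), and 1 with median scaling. The 4 were 3 of the 6 and Mef2c, a transcription factor called in that setting. P2ry1 was not called without CBD array 2 (-0.86, adjusted p = 0.231) or CBD_LPS array 1 (-1.04, adjusted p = 0.0935), and Mertk was called only with all arrays or without CBD array 1 (adjusted p = 0.0838 to 0.366 in the other settings).

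Of 25 genes of the G1/S transition, 4 were called lower and 0 higher, while the median over the 22 detected was -0.03 and 11 of these 22 had a positive difference. Ccnd1, cyclin D1, had 10.90 and 9.31 on the CBD_LPS arrays, against 11.54 and 12.48 on the CBD arrays (-1.91 ± 0.35, adjusted p = 0.00375), and the 3 dimmer Ccnd1 probes differed by -0.84, -1.37 and -0.40. E2f2, an activating E2F factor, had 9.32 and 10.42 on the CBD_LPS arrays, against 11.15 and 11.11 on the CBD arrays (-1.25 ± 0.25, adjusted p = 0.00749). Rbl2, the pocket protein p130, and Cdk2, the kinase of S phase entry, fell by 1.17 and 0.44. A single array left out reduced the 4 to 1 without CBD array 2 or CBD_LPS array 2 and to 2 without CBD_LPS array 1, and median scaling to 0. In turn 2 of the list (Cdkn2b and Gadd45a) were called higher without CBD array 1, 1 (Cdkn2b) without CBD_LPS array 1 and 2 (Gadd45a and Gadd45b) with median scaling. Ccnd1 was at -1.44 (adjusted p = 0.0848) without CBD array 2 and -1.11 (adjusted p = 0.0595) without CBD_LPS array 2, and E2f2 at -0.70 (adjusted p = 0.104) without CBD_LPS array 1. Rbl2 was called only with all arrays or without CBD array 1 (adjusted p = 0.103 to 0.351 in the other settings), and Cdk2 was not called without CBD array 2 (-0.32, adjusted p = 0.342) or CBD_LPS array 2 (-0.30, adjusted p = 0.302). Under median scaling the difference of Cdk2 turned to 0.13 (adjusted p = 0.857). The dimmer Cdk2 probes differed by -0.48, -0.38 and -0.26 and were not called (adjusted p = 0.144 to 0.511). Of 27 DNA replication and mitosis genes, 0 were called in either direction (median -0.21 over 22 detected), against 10 lower in untreated cells. The latter had 6 arrays a group and a median of -0.33 over the same genes.

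Stress and housekeeping lists had few or no calls against CBD alone. In each of the lists of integrated stress response genes (28 measured), NRF2 targets (23), cytosolic aminoacyl-tRNA synthetases (15), metallothioneins and zinc transporters (18), ER chaperones (17) and cytosolic ribosomal proteins (33), 0 genes were called higher or lower, with medians of the detected members between -0.09 and 0.14. Leaving out an array changed some of these counts. Without CBD_LPS array 1, 5 NRF2 targets were called higher (Abcc1, Cat, Gsr, Nqo1 and Txnrd1), and without CBD array 1 it was 1 (Mafg). In the stress response list 2 genes, Slc7a11 and Ppp1r15a, were called higher without CBD array 1, without CBD_LPS array 1 and with median scaling. Of the other lists, the zinc transporter gene Slc30a5 was called lower without CBD array 1 and the ribosomal Rps9 without CBD_LPS array 2. The heat shock list had 1 of 15 called, Hspa1l (0.27 ± 0.05, adjusted p = 0.00474, but 0.101 without CBD array 2 and 0.0796 without CBD_LPS array 2), and the sterol list 1 of 20, the nuclear receptor Pparg (-0.16 ± 0.03, adjusted p = 0.00199), whose other probes differed by 0.01 and 0.00. Hmox1, the NRF2-induced heme oxygenase, was at 15.31 and 15.20 on the CBD_LPS arrays, against 15.31 and 14.33 on the CBD arrays, and Trib3, a pseudokinase induced by Atf4, at 9.24 and 10.28 on the CBD_LPS arrays, against 10.64 and 9.28 on the CBD arrays. The groups overlapped for Trib3 and Ddit3, and the differences of -0.20 and -0.65 had adjusted p-values of 0.897 and 0.782. Slc7a11, the cystine transporter, had 11.15 and 12.59 on the CBD_LPS arrays, against 11.24 and 9.14 on the CBD arrays (1.68, adjusted p = 0.0658), also with overlap. The mean of the 19 detected NRF2 targets was 12.11 and 12.81 on the CBD_LPS arrays, against 12.48 and 11.86 on the CBD arrays, with LPS arrays at 11.47 to 12.02 and Cntr arrays at 11.41 to 11.60. For both lists the 2 arrays of each group lay farther apart than the group means.

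**Figure D2:**
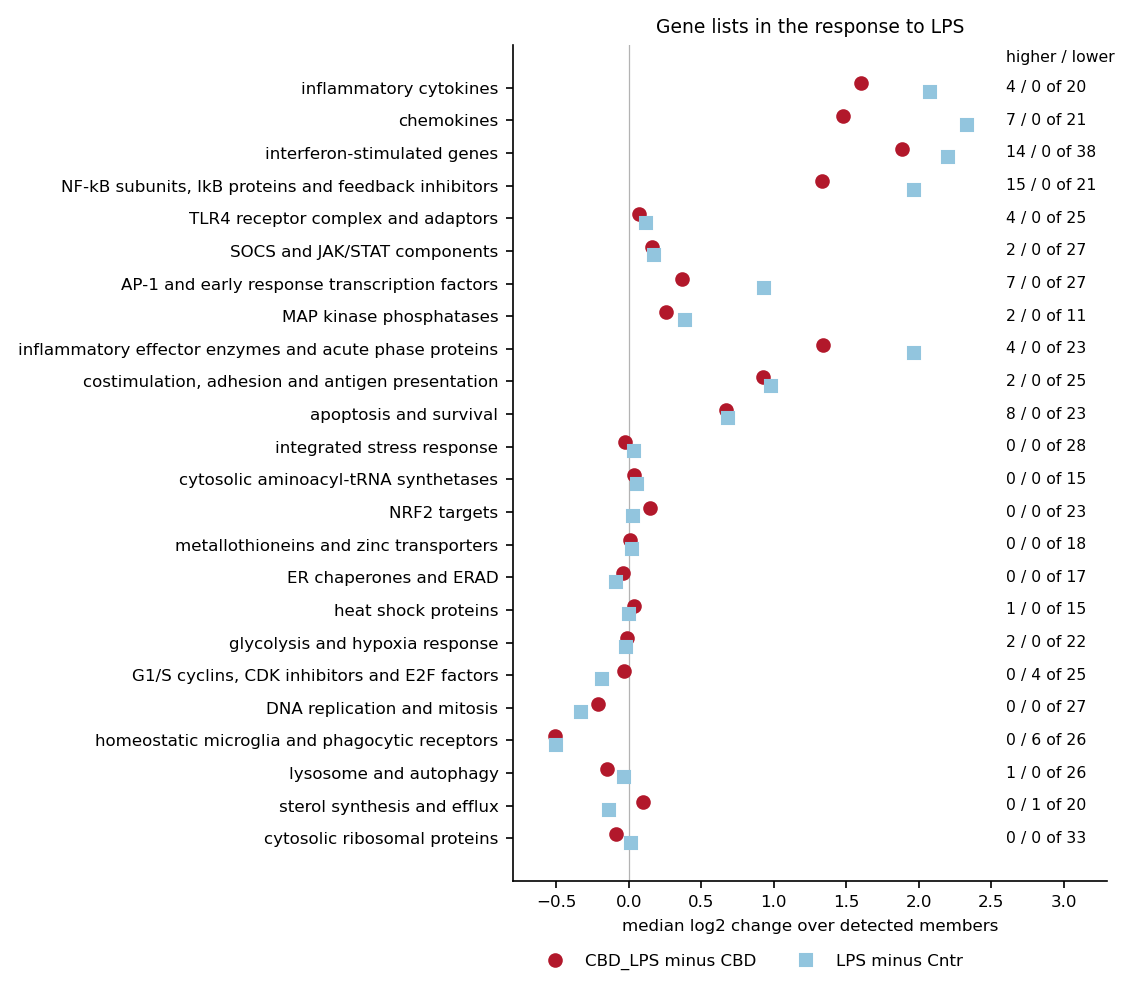
Median log2 difference over the detected members of 24 gene lists for CBD_LPS minus CBD (circles) and LPS minus Cntr (squares), with the number of measured members called higher and lower in CBD_LPS against CBD at the right. Interferon-stimulated genes had the highest median with CBD (1.88) and the homeostatic microglial genes the lowest (-0.51), while the stress lists lie near 0.

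**Figure D3:**
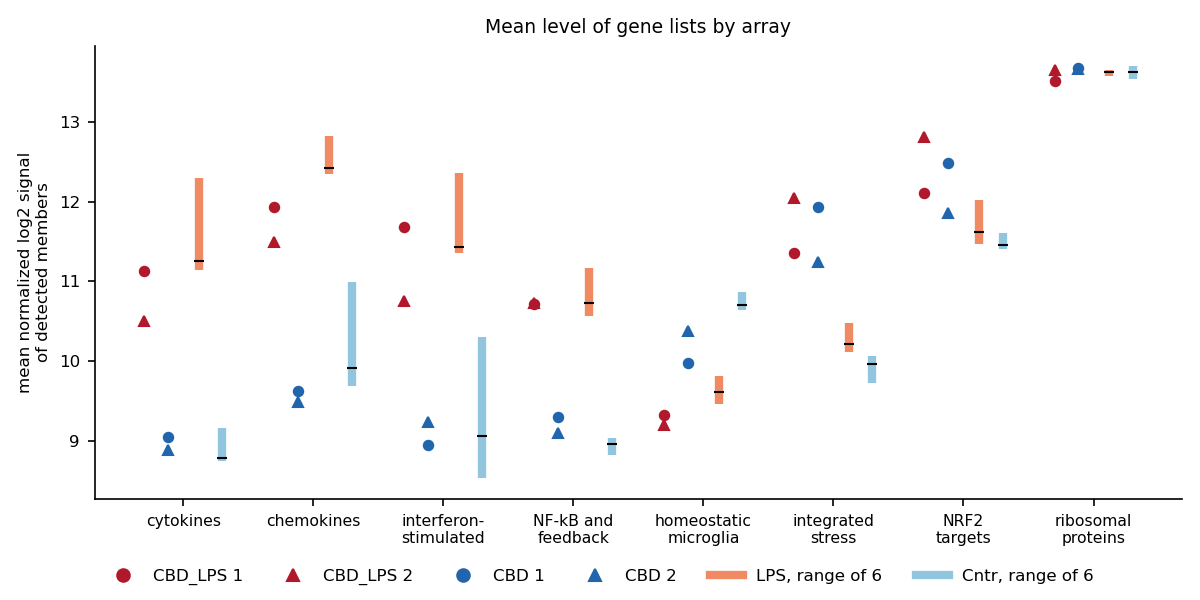
Mean normalized log2 signal of the detected members of 8 gene lists on each CBD_LPS and CBD array (points), with the range and median of the 6 LPS and 6 Cntr arrays (bars with a line). The cytokine, chemokine, interferon and NF-kB lists separate CBD_LPS from CBD, whereas the stress response points (11.36 and 12.05 against 11.94 and 11.25) interleave and all lie above the LPS and Cntr arrays.

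Whether the response to LPS differed with CBD present was tested against the response of untreated cells (LPS minus Cntr), which shares no array with it. In untreated cells 900 of 15161 genes were called higher (5.94%) and 1352 lower (8.92%) with 6 arrays a group. Most probes called with CBD were called in the same direction in untreated cells: 317 of the 352 higher (90.1% of that list and 24.2% of the untreated list of 1308) and 289 of the 317 lower (91.2%, and 15.6% of the untreated list of 1856), while 1 of the 352 went the other way. Over the 6382 genes detected on all 16 arrays of the 4 groups, the differences correlated with Pearson's r of 0.90 and a Spearman coefficient of 0.76. For single pairings of a CBD_LPS with a CBD array, r with the response of untreated cells ran from 0.681 to 0.916. These coefficients are descriptions across genes, which are not independent replicates, of values from arrays of 1 cell line and platform. The median SE of a difference was 0.167 with CBD and 0.0964 in untreated cells.

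**Figure D4:**
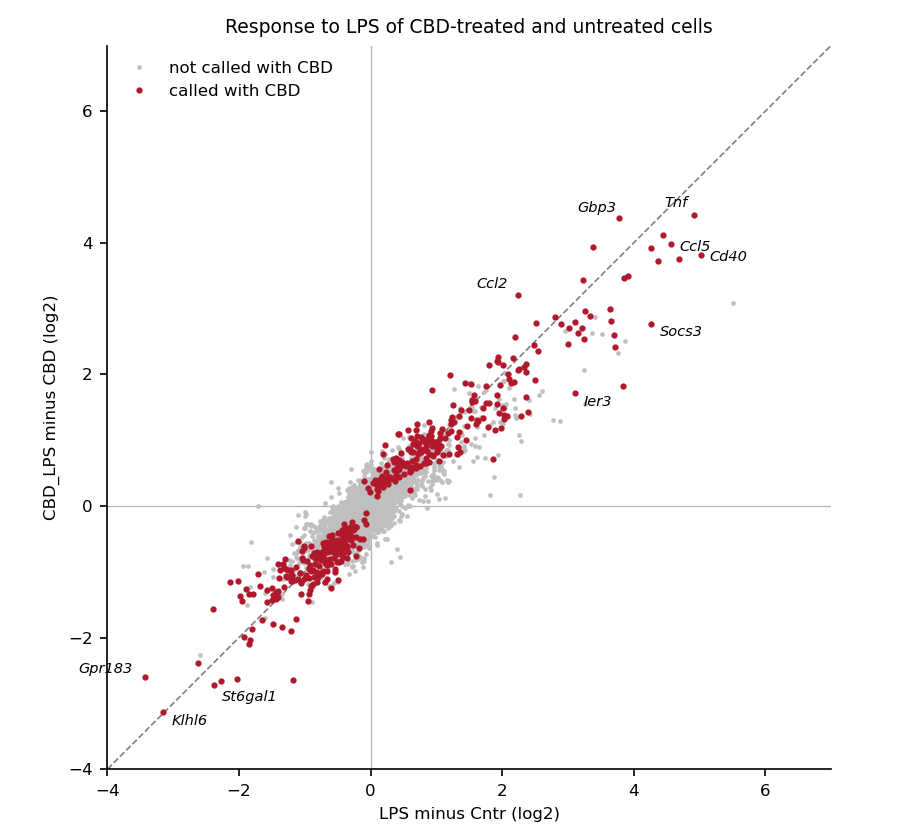
Log2 difference of CBD_LPS minus CBD (vertical) against LPS minus Cntr (horizontal) for the 6382 genes detected on all 16 arrays, with genes called in CBD_LPS against CBD in red and the line of equal values dashed. The called genes lie along the line in both directions, and most of those with large rises in untreated cells, such as Socs3 (2.77 with CBD, 4.27 without) and Ier3 (1.71 with CBD, 3.11 without), lie below it.

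Of the 227 genes among these that had risen by 2-fold or more in untreated cells, 184 had a smaller difference with CBD, 112 were called higher with CBD and 0 went the other way. Their median difference was 1.37 with CBD and 1.72 in untreated cells. Of the 116 that had fallen by 2-fold or more, 95 had a smaller fall with CBD and 68 were called lower, with medians of -1.07 with CBD and -1.28 in untreated cells. These genes were selected on the untreated response, a choice that by itself favors larger values there.

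The test of the difference between the responses called 2 of 24611 probes (0.00813%), with 142 at an unadjusted p of 0.005 or less and, at an unadjusted p under 0.05, 585 higher and 603 lower. The first was Pi16, a peptidase inhibitor, whose signals of 7.66 and 7.71 on the CBD_LPS arrays, against 7.99 and 7.91 on the CBD arrays, were near the floor and detected on the CBD arrays alone among the 4 groups. The LPS arrays were at 7.62 to 7.68 and the Cntr arrays at 7.66 to 7.72, and the response with CBD was lower by 0.24 (adjusted p = 0.00352). Without CBD array 1 it was lower by 0.21 and not called (adjusted p = 0.0900). The other was a bright probe without a gene name, at 14.21 and 14.32 on the CBD_LPS arrays, against 14.79 and 14.71 on the CBD arrays, with the LPS arrays at 14.58 to 14.66 and the Cntr arrays at 14.49 to 14.66 (-0.52, adjusted p = 0.00599). Both calls were of small changes. The counts ran from 0 without CBD array 1 to 78 without CBD_LPS array 1, with 50 without CBD array 2 and 11 without CBD_LPS array 2, so that this count depended on which array was left out.

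Several inflammatory genes had responses smaller with CBD by an amount whose unadjusted 95% interval did not include 0, although none of them passed the adjusted test. Over all probes such intervals were no more frequent than chance gives, so the genes below are described and not called. For Il1b the response was 4.08 with CBD and 6.53 in untreated cells, a difference of -2.45 (95% interval -3.99 to -0.91, adjusted p = 0.815). For Cxcl10 it was 3.86 with CBD and 5.26 in untreated cells (-1.41, -2.46 to -0.35, adjusted p = 0.929), and for Socs3 2.77 with CBD and 4.27 in untreated cells (-1.50, -2.80 to -0.20, adjusted p = 1.00). Ier3 responded by 1.71 with CBD and 3.11 in untreated cells (-1.40, -1.99 to -0.81, adjusted p = 0.229). Its CBD arrays (12.64 and 11.71) lay above all 6 Cntr arrays (11.06 to 11.48), and its CBD_LPS arrays (13.97 and 13.80) below all 6 LPS arrays (14.28 to 14.58). Dusp2, an ERK phosphatase chosen for mention after its values were seen, had 9.04 and 7.99 on the CBD_LPS arrays, against 8.08 and 8.63 on the CBD arrays, and responded by 0.16 with CBD and 1.82 in untreated cells (-1.66, -2.42 to -0.89, adjusted p = 0.393). The stress gene Nupr1, chosen in the same way, had 13.06 and 13.44 on the CBD_LPS arrays, against 13.62 and 12.55 on the CBD arrays, and responded by 0.17 with CBD and 2.27 in untreated cells (-2.10, -3.21 to -0.99, adjusted p = 0.702). Dusp8 was larger with CBD, at 1.02 against 0.41 in untreated cells (0.61, 0.38 to 0.84, adjusted p = 0.0793).

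For other leading genes the interval of the difference spanned 0 and bounded how far the responses could differ. The narrowest among the 24 genes of the largest changes were those of Arhgap45 (-0.08, -0.58 to 0.42) and Traf1 (0.13, -0.40 to 0.66). Cxcl2 had -0.37 (-0.98 to 0.24) and Tnf -0.49 (-1.57 to 0.60), which leave room for a response up to 1.57 smaller in the case of Tnf. For Lcn2 the interval ran from -0.71 to 4.70 around 2.00. The direction of the difference is undetermined for all of these genes. Over the 6382 genes the intervals reached a median of 0.403 to either side, or 1.32-fold.

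**Figure D5:**
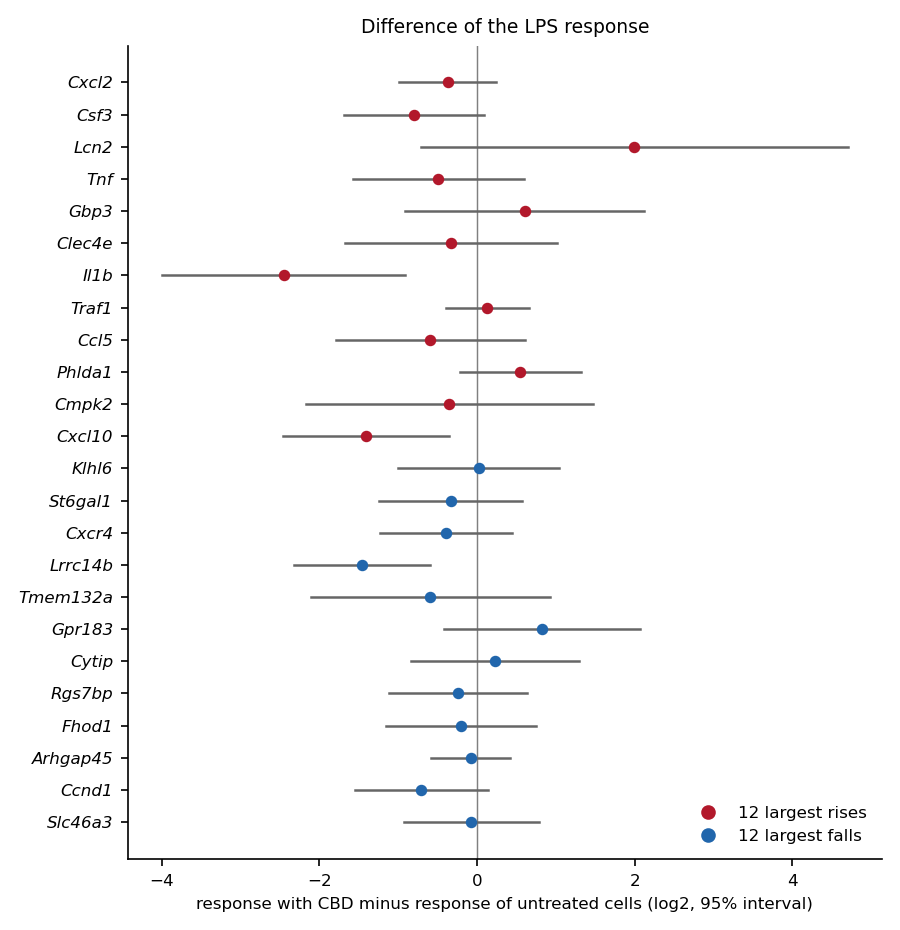
Response to LPS with CBD minus response of untreated cells (log2, points) with unadjusted 95% intervals (lines) for the 12 genes with the largest rises and the 12 with the largest falls in CBD_LPS against CBD. The intervals of Il1b (-3.99 to -0.91), Cxcl10 (-2.46 to -0.35) and Lrrc14b (-2.33 to -0.59) do not include 0, and none of the 24 genes passed the adjusted test.

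CBD and THC, isomers that differ by the open and the closed ring, were compared as 1 pair at the same dose and times, through CBD_LPS minus CBD against THC_LPS minus THC. The test of this difference called 2 of 24611 probes (0.00813%), with 74 at an unadjusted p of 0.005 or less and, at an unadjusted p under 0.05, 502 higher and 422 lower. These were again Pi16 (-0.23, adjusted p = 0.0136) and the probe without a gene name (-0.52, adjusted p = 0.0136), which share the CBD arrays with the comparison above. Without CBD array 1 the count was 0 and without CBD_LPS array 1 it was 47. The response of Cxcl2 was 5.57 with CBD and 5.63 with THC, with an interval of the difference of -0.71 to 0.59. Traf1 responded by 4.00 with CBD and 3.98 with THC (-0.54 to 0.58). Klhl6 differed by -3.13 with CBD and -2.88 with THC (-1.34 to 0.84). For Il1b the values were 4.08 with CBD and 5.78 with THC (-3.34 to -0.07, adjusted p = 1.00), and for Cxcl10 3.86 with CBD and 5.12 with THC (-2.38 to -0.14, adjusted p = 1.00). Lcn2 responded by 4.56 with CBD and 1.08 with THC (0.61 to 6.35, adjusted p = 1.00), where the THC arrays themselves ran from 7.60 to 12.40. The intervals of the last 3 genes leave out 0 before adjustment and none passed the adjusted test. Here too, such intervals were no more frequent over all probes than chance gives.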

How the data were processed

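The authors deposited, for each of 24 arrays, the mean bead signal intensity of 24611 probes without normalization and a detection p-value against the negative control beads of the array. They also deposited log2 values, found here to be the log2 of the signals after quantile normalization, with no background correction. Labelling and scanning settings are not given in the sources used here. Groups were taken from the condition labels (CBD_LPS 2, CBD 2, LPS 6, Cntr 6, THC_LPS 4 and THC 4 arrays), while the study's own text describes other numbers of replicates.

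The intensities were background-corrected and quantile-normalized with neqc of limma 3.58.1 (offset 16, R 4.3.3), and statmod 1.5.0 was used by the fit with array weights. A linear model with a mean for each of the 6 groups was fitted to all arrays and all probes, and moderated tests with Benjamini-Hochberg adjustment gave every p-value quoted, with calls at an adjusted p under 0.05. Folds refer to corrected signals with the offset added, which understates changes of dim genes. Per array 40.6 to 44.8% of probes were detected (detection p under 0.05), and 36.3% on all arrays. A gene undetected on every array of a group has its fold as a bound, the mean of the brighter group over the higher, per array, of the lowest detected signal and its own. Probes were named from the platform table, and 99 of the 669 called probes had no gene name.

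Named genes are the 12 largest rises and 12 largest falls among called genes without overlap between CBD_LPS and CBD, up to 4 called members of each gene list with the largest change, and called genes of the difference tests. Other list members were chosen after their values were seen. The members and the 30 lists (676 entries) were chosen with earlier results of these data known. The model was tested on simulated data. Alternatives covered background correction, offset, scaling, the deposited log2 values, dim probes, the variance prior, array weights, the groups in the fit, the replicate block, each array left out, the threshold and the probe of a gene, and the crossed replicate block and pairs of arrays left out were added after seeing the data.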

Additional observations from a re-analysis of the deposited data

Results flagged for a closer look

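Pi16 and the bright probe without a gene name were the results in which the response to LPS differed between CBD-treated and other cells by the test of the difference itself. The response of Pi16 was lower with CBD than in untreated cells (a difference of -0.24 in log2) and than with THC (-0.226), and that of the unnamed probe differed by -0.52 in both comparisons, which share the CBD_LPS and CBD arrays.

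Among the 12 genes with the largest rises and the 12 with the largest falls, the 6 LPS arrays and the 6 Cntr arrays of each gene were searched for an array far from the others. Of these 48 groups of values, 2 held one, and chance gives about 1 in 20. Csf3 was 14.63 on LPS replicate 4, against 12.87 to 13.35 on the other LPS arrays. Cxcl10 was 8.72 on Cntr replicate 4, against 7.72 to 8.01 on the other Cntr arrays. The groups with CBD have 2 arrays each and could not be searched in this way.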

How the results depend on the processing

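The counts of probes called higher and lower in CBD_LPS against CBD (352 and 317) were 212 and 155 with array weights, 193 and 127 with CBD array 1 and CBD_LPS array 2 left out, 165 and 128 with CBD array 2 and CBD_LPS array 1 left out, and 546 and 555 at an unadjusted p of 0.005 or less. With only the 4 arrays of the comparison in the fit, which leaves few residual degrees of freedom, limma called 0 probes, and 0 list genes. Median scaling left 15 lower, and gave 1491 called probes in untreated cells in place of 3164. Leaving out single arrays gave 153 to 460 higher and 224 to 284 lower. The causes of these changes were not tested.

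The number of probes whose response differed from that of untreated cells (2) was 0 without background correction, with the deposited log2 values and with median scaling, 12 and 70 with the first and the second pair of arrays left out, 142 at the unadjusted threshold, and 0 to 78 with single arrays left out. Against THC (2) it was 0 without background correction, with the deposited log2 values, with median scaling, with array weights and with only the groups of the comparison, 1 with the filter on dim probes and with the trended prior, 7 and 45 with the pairs of arrays left out, 74 at the unadjusted threshold, and 0 to 47 with single arrays left out.

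List genes called higher (73) numbered 44 and 25 with the pairs of arrays left out and 37 to 57 with single arrays left out. List genes called lower (11) numbered 1 with median scaling, 6 with array weights, 6 with the next-brightest probe, 7 with CBD array 2 and CBD_LPS array 1 left out, and 6 to 13 with single arrays left out. Directions turned for Cdk2 with median scaling (0.13) and, with the next-brightest probe, for Pparg (0.0052) and Rbl2 (0.0126). The next-brightest probes of Klhl6, Fas, Maff and E2f2 differed by -0.11, 0.06, 0.03 and -0.03 and were detected on at most 1 of the 4 arrays.

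With the replicate number as a block, 309 probes were higher and 260 lower in CBD_LPS against CBD, and 1 probe differed from THC. The deviations of same-numbered CBD_LPS and CBD arrays from their group means correlated at -0.75. With 2 arrays a group the deviations mirror each other, so the 0.75 of CBD_LPS array 2 with CBD array 1 is the same value with its sign turned. The values show no pairing by number. Whether the numbers of one group are crossed was not tested, and the labels do not settle it. With the numbers crossed the counts were 336 and 301, and 0 against THC.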
